A study of Homo sapiens with 2 samples.

Results

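The classical and related cadherins were taken from the deposited RNA-seq table by gene symbol. All 10 listed members, namely CDH1, CDH2, CDH3, CDH4, CDH6, CDH11, CDH13, CDH16, CDH17 and CDH24, had a row, out of 20985 genes in the table. The table holds 1 library of parental HCC827 cells and 1 library of HCC827 ZDR3 cells. HCC827 is an established human lung adenocarcinoma line with an activating EGFR mutation, and ZDR3 is its derivative with resistance to gefitinib, an inhibitor of the EGFR kinase. Resistant cells were raised from HCC827 in gefitinib that started at 10 nM, was stepped up 3-fold each month and ended at 1 µM, and 3 colonies were then taken. The labels do not say which colony ZDR3 is, how many cultures went into a library, or whether the drug was present at harvest. A medium with heavy or light lysine for protein labelling is described, without a statement that the sequenced cells grew in it. With 1 library per group no difference has a replicate check and no p-value is given: each value compares these 2 libraries.

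Cadherins are membrane proteins that bind their like on a neighbouring cell in the presence of calcium. The classical members hold p120-catenin and beta-catenin or plakoglobin on their cytoplasmic tail, and alpha-catenin links that complex to actin. Type I members include E-, P-, N- and R-cadherin, type II members include CDH6, CDH11 and CDH24, CDH13 is tethered by a lipid anchor and has no tail, and CDH16 and CDH17 have a longer outer part and a short tail. Simple epithelia, the lung lining included, are known for E-cadherin, and a move from E- to N-cadherin is a textbook mark of epithelial cells that take on mesenchymal traits.

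Levels are in normalised reads, where 1 unit equals 143 parental or 138 resistant reads. These units are not corrected for gene length. A gene was called expressed when either library reached a level of 1, and the log2 ratio is resistant over parental with 1 unit added to both levels. This addition understates the ratio of low genes, so plain ratios are given too, with exact 95% binomial (Clopper-Pearson) intervals that cover counting error only. Gene reads summed to 257192607 for parental cells and to 243549870 for ZDR3.

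The epithelial identity of the line was checked first. Of 10 lung epithelial markers 8 were expressed in each library, with EPCAM at 527 in parental cells and 62.4 in ZDR3, KRT8 at 5701 and 2118, and the lung lineage factor NKX2-1 at 95.0 and 9.33. Of the 8, 7 were lower by 2-fold or more in ZDR3, as were 9.68% of all expressed genes. The surfactant gene SFTPC had 0 reads in both and SFTPB was below the minimum.

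Of the 10 cadherins 8 were expressed. Among these 3 were higher in ZDR3 by 2-fold or more, as were 10.6% of all 13777 expressed genes, and 4 were lower by 2-fold or more, as were 9.68% of all. The eighth, CDH24, lay just short of 2-fold lower. Their median log2 ratio was -1.27 against -0.03 over all expressed genes, and their median absolute log2 ratio was 2.37 against 0.42. With 5 units added in place of 1, CDH4 (-0.56), CDH11 (-0.49) and CDH17 (0.63) no longer passed 2-fold, which left 2 cadherins higher and 2 lower. At least 16-fold differences were seen for 2 cadherins in the higher direction (0.573% of all expressed genes) and for 1 in the lower (0.856%). In bulk RNA, fewer cells of a type and less RNA per cell cannot be told apart.

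**Figure D1:**
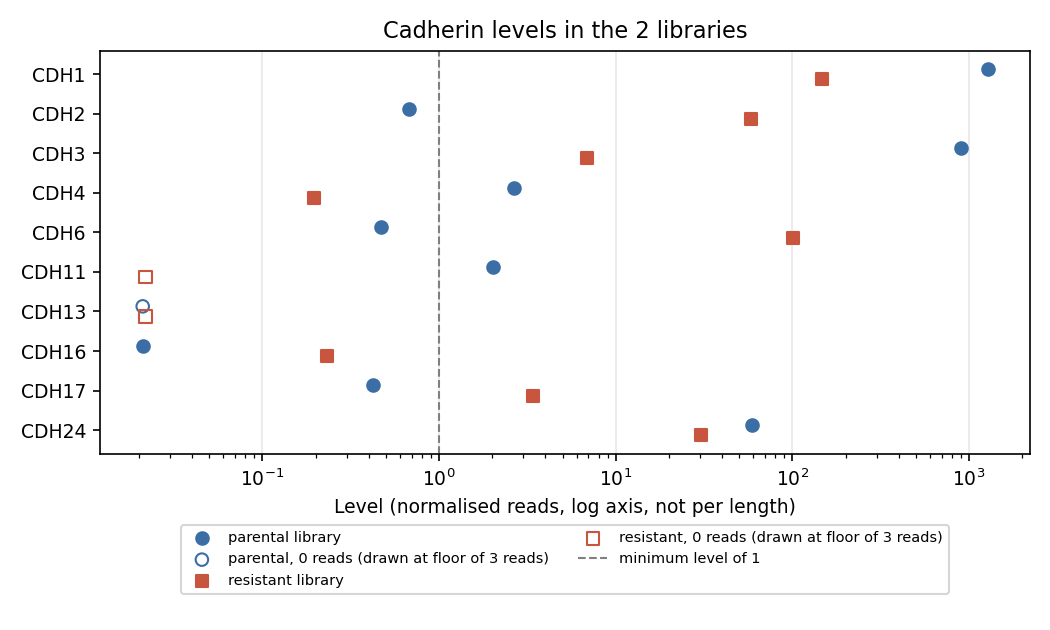
Level of each cadherin in normalised reads (log axis, not per length) in the parental (circles) and resistant (squares) library, with open symbols for 0 reads drawn at the floor of 3 reads. CDH1 and CDH3 are the highest in parental cells, while CDH2 and CDH6 pass from below the minimum level of 1 to 58.4 and 101.

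Both abundant epithelial cadherins were lower in ZDR3, but by very different amounts. CDH1 (E-cadherin, ENSG00000039068, chromosome 16), the main adhesion receptor of epithelial adherens junctions, stood at 1271 in parental cells and 146 in ZDR3. Its level was 8.70-fold lower, with a counting interval of 8.58 to 8.83 and a log2 ratio of -3.11. CDH3 (P-cadherin, ENSG00000062038, chromosome 16), known from basal epithelial layers and the placenta, stood at 894 and 6.87. Its level was 130.1-fold lower, with an interval of 122 to 139, and its log2 ratio of -6.83 was the 13th lowest of all expressed genes, where CDH1 was the 202nd lowest. Per kb of transcript, the level of CDH1 was 1.43 times that of CDH3 in parental cells and 21.4 times that of CDH3 in ZDR3.

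CDH2 (N-cadherin, ENSG00000170558, chromosome 18), which joins neurons, heart muscle and mesenchymal cells, went the other way. It had 96 reads in parental cells and 8030 in ZDR3, or levels of 0.672 and 58.4. The ratio was 86.8 with a counting interval of 71.0 to 107, and the log2 ratio of 5.15 was the 37th highest. CDH4 (R-cadherin, ENSG00000179242, chromosome 20), a type I relative of CDH2 first known from the retina, was low in both libraries, with 381 and 27 reads and levels of 2.67 and 0.196. It was 13.6-fold lower, with an interval of 9.19 to 20.9 and a log2 ratio of -1.62. CDH4 overlaps 1 other gene of the table in GENCODE release 29, a locus with a clone name only, and without a stated strand setting reads from both cannot be told apart. The other 9 cadherins overlap none.

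RefSeq promoter sequences (build GRCh38.p14), matched by symbol, were examined for 2 of the 10 members, CDH2 and CDH4. These are type I relatives with opposite directions, each with 2 starts in the set of sequences used. That set need not hold every start of a gene, and starts are numbered by their order in it. Promoters of the other members were not examined, so the 2 are not a count of members with a promoter entry. Shown are the 250 bases before both CDH2 starts and before the first CDH4 start, since these hold a match to a searched motif. They lie at chr18:28177131-28177380 and chr18:28036642-28036891, both on the minus strand, and at chr20:61499171-61499420 on the plus strand. Capitals mark the matches, searched on both strands. The E-box was CACCTG, which reads CAGGTG on the other strand, the letters that ZEB and SNAI repressors are known to bind. The GC box was GGGCGG, which reads on the other strand as CCGCCC, and the CCAAT box reads ATTGG there.
CDH2 start 1: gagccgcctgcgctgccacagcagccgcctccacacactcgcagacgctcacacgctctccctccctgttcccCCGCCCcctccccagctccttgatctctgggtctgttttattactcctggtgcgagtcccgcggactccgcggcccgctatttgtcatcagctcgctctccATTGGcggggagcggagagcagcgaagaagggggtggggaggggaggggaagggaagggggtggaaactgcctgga
CDH2 start 2: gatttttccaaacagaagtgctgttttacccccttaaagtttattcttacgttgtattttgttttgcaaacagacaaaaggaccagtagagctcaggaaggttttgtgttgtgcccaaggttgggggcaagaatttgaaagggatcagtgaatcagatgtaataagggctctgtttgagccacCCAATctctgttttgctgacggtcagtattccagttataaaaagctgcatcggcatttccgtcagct
CDH4 start 1: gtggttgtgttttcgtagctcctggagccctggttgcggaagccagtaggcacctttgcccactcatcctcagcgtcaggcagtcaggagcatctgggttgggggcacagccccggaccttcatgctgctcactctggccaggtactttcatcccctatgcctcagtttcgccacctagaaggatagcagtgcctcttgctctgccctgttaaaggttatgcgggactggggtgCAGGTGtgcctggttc
The first CDH2 window holds a GC box that begins 177 bases and a CCAAT box that begins 76 bases before the start, with 17 CpG pairs. The second CDH2 window holds a CCAAT box at 67 bases and 4 CpG pairs, and the CDH4 window an E-box at 16 bases and 6 CpG pairs. No matches overlap. Of 34941 windows of 250 bases in the table, 17.5% hold the E-box letters, 42.5% the GC box and 32.0% the CCAAT box, and the median number of CpG pairs is 11. The RNA values are gene totals, so the start in use was not measured.

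Among type II cadherins the largest difference was that of CDH6 (K-cadherin, ENSG00000113361, chromosome 5), known from the fetal kidney and renal tubule. CDH6 had 67 reads in parental cells and 13922 in ZDR3, or levels of 0.469 and 101. The ratio was 216 with a counting interval of 170 to 279, and its log2 ratio of 6.12 was the 13th highest of all expressed genes. CDH11 (OB-cadherin, ENSG00000140937, chromosome 16), typical of osteoblasts and mesenchymal cells, had 290 parental reads, a level of 2.03, and 0 resistant reads. With the 0 set at a floor of 3 reads it was 93.1-fold lower, and the counting interval of its plain ratio begins at 75.2-fold lower. Its log2 ratio with 1 unit added was -1.60. Of these cadherins of mesenchymal cells, CDH2 was thus higher and CDH11 lower in ZDR3.

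CDH24 (ENSG00000139880, chromosome 14), a type II cadherin that binds catenins, came after CDH1 and CDH3 in level per kb in parental cells and differed least of the 8. It stood at 59.2 and 30.3 normalised reads, 1.96-fold lower with an interval of 1.89 to 2.03 and a log2 ratio of -0.95.

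The related cadherins were scarce in both libraries. CDH17 (LI-cadherin, ENSG00000079112, chromosome 8), an intestinal cadherin, had 60 and 468 reads, or levels of 0.420 and 3.40, with a ratio of 8.10, an interval of 6.18 to 10.8 and a log2 ratio of 1.63. CDH16 (KSP-cadherin, ENSG00000166589, chromosome 16), known from kidney epithelium, had 3 and 32 reads. Its ratio of 11.1 rested on those 3 parental reads and had an interval of 3.46 to 56.5, and it stayed below the minimum level in both libraries. CDH13 (T-cadherin, ENSG00000140945, chromosome 16), the lipid-anchored member, had 0 reads in both, which allows up to 3 reads in each, a level of 0.0210 in parental cells and 0.0218 in ZDR3.

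**Figure D2:**
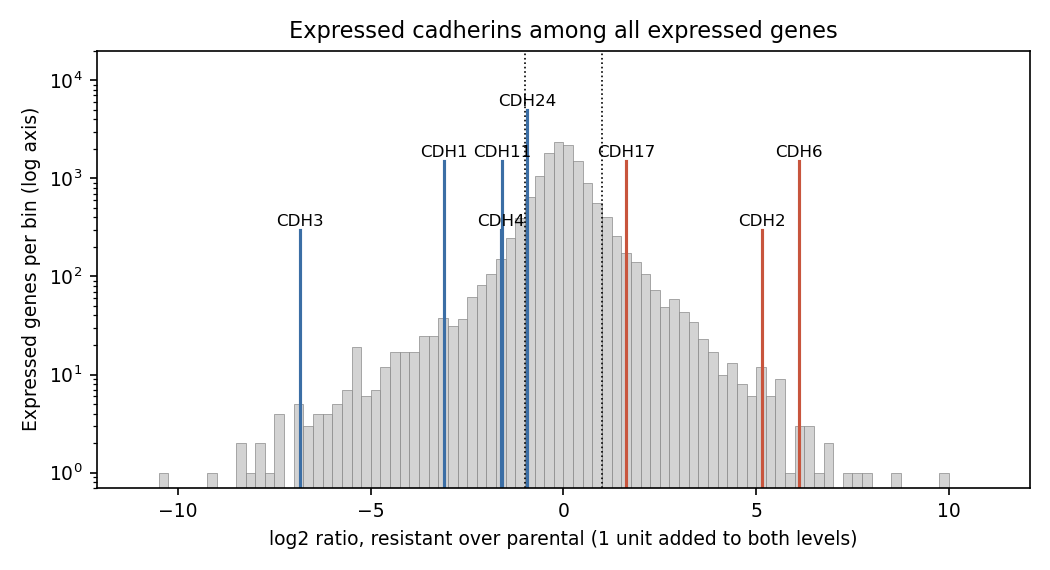
Histogram of the log2 ratio of all 13777 expressed genes (log axis for the number of genes per bin), with vertical lines for the 8 expressed cadherins and dotted lines at 2-fold. CDH3 at -6.83 lies in the lower tail and CDH2 at 5.15 and CDH6 at 6.12 in the upper tail.

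Levels of different cadherins were compared per kb of the longest coding transcript in GENCODE release 29. The summed level of the 10 genes was 459 per kb in parental cells and 66.2 per kb in ZDR3, 6.93-fold lower. In the parental library CDH1 made up 56.6% of that sum, CDH3 39.5% and CDH24 3.63%, while CDH2 and CDH6 together made up 0.0458%. In the resistant library CDH1 was still the largest part at 45.1%, followed by CDH2 at 20.3%, CDH6 at 18.0%, CDH24 at 12.9%, CDH3 at 2.11% and CDH17 at 1.39%. The CDH1 level per kb was 1676 times that of CDH2 in parental cells and 2.22 times that of CDH2 in ZDR3. Levels per kb of 13.5 for CDH2 and 11.9 for CDH6 in ZDR3 stood beside differences of 230.1 per kb for CDH1 and 180.1 per kb for CDH3, both in the lower direction. The order of CDH2 and CDH6 depended on the length used: per kb of coding sequence alone CDH6 followed CDH1 with 31.7% and CDH2 came next with 15.9%.

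**Figure D3:**
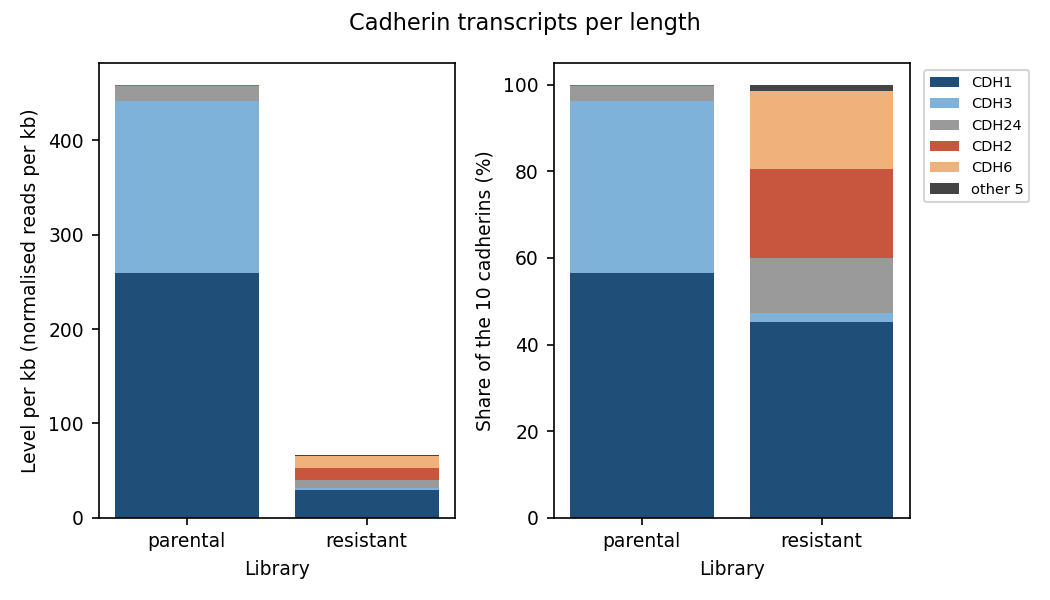
Stacked bars of the cadherin levels per kb of transcript (left, normalised reads per kb) and as shares of their sum (right, %), in parental cells and resistant library. The sum is 459 in parental cells and 66.2 in ZDR3, and CDH1 is the largest part of both.

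The genes beside each cadherin were examined on the chromosome. Over all expressed genes, 10.6% were higher and 9.68% lower in ZDR3 by 2-fold or more. CDH3 and CDH1 are adjacent on chromosome 16 with no other gene of the table between them. Of the 20 expressed genes closest to CDH1 (10 per side) 0 were higher by 2-fold or more and 2 were lower by as much, of which CDH3 was one and HAS3, a hyaluronan synthase, the other at -2.13. The median log2 ratio of those 20 was -0.01, and that of the 20 around CDH3 was 0.01. The 20 around CDH2 had a median of -0.01, with 4 higher and 2 lower by 2-fold or more, beside 5.15 for CDH2 itself. The 20 around CDH6 had a median of 0.37, with 3 higher and 1 lower, beside 6.12 for CDH6 itself. The 3 higher ones were AMACR (4.37), BASP1 (1.40) and FAM134B (1.39). FAM134B was at 0.0840 in parental cells and 1.84 in ZDR3, so only ZDR3 made it count as expressed. CDH11, CDH13 and CDH16 also lie on chromosome 16, with neighbour medians of 0.09, 0.58 and 0.16. The other cadherins had neighbour medians from -0.28 (CDH17) to -0.19 (CDH24 and CDH4).

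**Figure D4:**
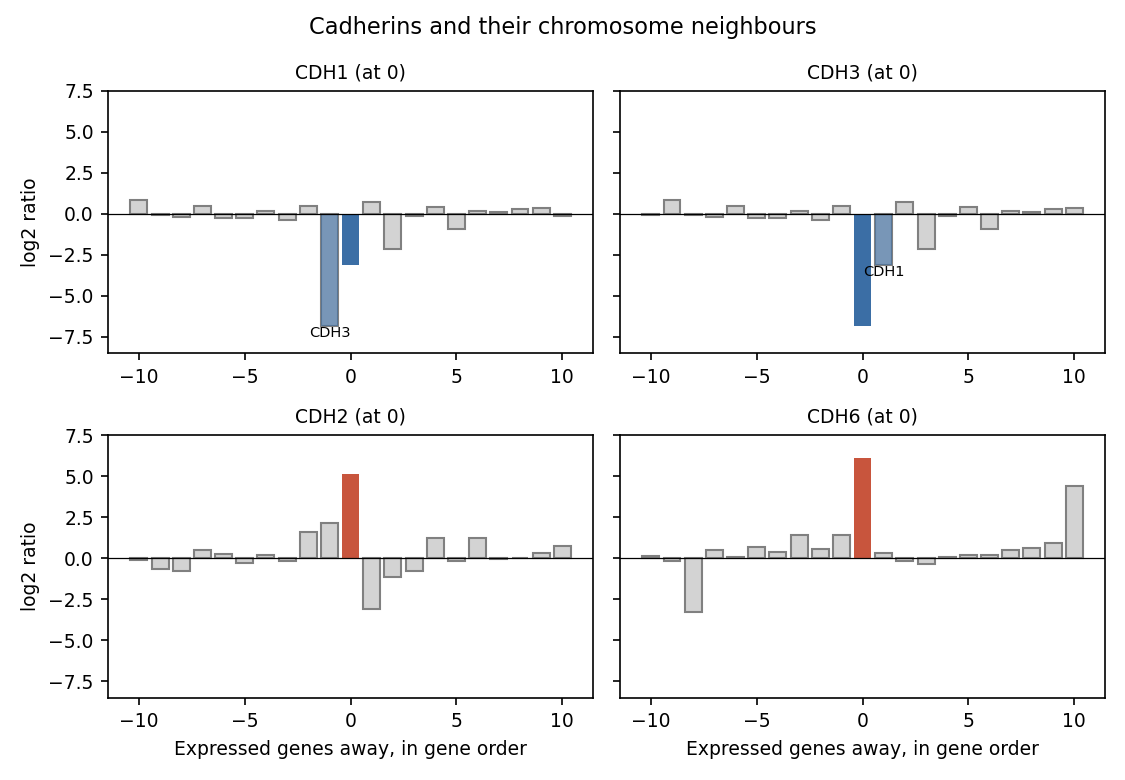
Log2 ratio of CDH1, CDH3, CDH2 and CDH6 (coloured, at position 0) and of 10 expressed genes per side in gene order (grey, other cadherins coloured). The neighbours' medians lie between -0.01 and 0.37, while the 4 cadherins range from -6.83 to 6.12.

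Further classical cadherins were scarce. Of 12 others in the table, 1 was expressed, CDH26, at 1.30 in parental cells and 0.254 in ZDR3 (log2 ratio -0.88), a plain ratio 5.12-fold lower with an interval of 3.55 to 7.57. The remaining 11 reached at most 0.980. Of 19 atypical cadherins and cadherin-related genes 9 were expressed, with a median of 0.09. Of all expressed genes 10.6% were past 2-fold higher and 9.68% past 2-fold lower, and of these 9 the counts were 1 and 0. The 1 was CDHR2, a brush border protocadherin of intestine and kidney, at 2.27 and 74.9, a ratio of 32.9 with an interval of 29.5 to 36.9. CDH23, a stereocilia cadherin, had 61 and 215 reads, a plain ratio of 3.66 with an interval of 2.74 to 4.95, and a log2 ratio of 0.84 once 1 unit was added. CELSR3 (-0.73), FAT4 (0.59) and CELSR2 (-0.25) did not pass 2-fold on the same scale.

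Among the catenins bound by these tails, plakoglobin had the largest difference. Of 12 catenins and associated genes 10 were expressed, with 1 past 2-fold higher, 2 past 2-fold lower and a median of -0.54. Past 2-fold in either direction were 20.3% of all expressed genes. JUP, the gene of plakoglobin, shared by adherens junctions and desmosomes, was at 1382 in parental cells and 145 in ZDR3, 9.51-fold lower (log2 ratio -3.24). CTNNB1, the gene of beta-catenin, which takes the same place on the tail, was at 860 and 633 (-0.44), and CTNNA1, the gene of alpha-catenin, at 1858 and 1757 (-0.08). CTNND1, the gene of p120-catenin, which stabilises cadherins at the membrane, was at 10633 and 5676 (-0.91). Per kb, CTNNB1 stood at 0.395 times the summed cadherin level in parental cells and at 2.02 times that sum in ZDR3. PKP4, a p120 relative, was at 174 and 85.7 (-1.01), and CTNNAL1 had a log2 ratio of -0.66. CTNNA2, the alpha-catenin of neurons, had 0 parental and 512 resistant reads, a level of 3.72 in ZDR3. With the 0 set at the floor of 3 reads it was 177-fold higher, and the counting interval begins at 144-fold.

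Nectins, immunoglobulin-type receptors that sit beside cadherins in adherens junctions and bind afadin, were set beside them. All 8 genes of that list were expressed, with 1 past 2-fold higher, 1 past 2-fold lower and a median of 0.15, against the 20.3% of all expressed genes past 2-fold in either direction. PVRL4 (nectin-4) was at 11.1 in parental cells and 0.109 in ZDR3 (-3.45), while PVRL3 (nectin-3) was at 7.84 and 26.1 (1.62). PVR (0.89), PVRL2 (-0.54) and the scaffold gene TJP1 (-0.51) lay within 2-fold.

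Genes for the processing, shedding and sorting of cadherins were also examined. All 16 were expressed, with 1 past 2-fold higher, 2 past 2-fold lower and a median of -0.28. That is close to the 20.3% of all expressed genes past 2-fold in either direction. PCSK5, a proprotein convertase of the family that removes the cadherin propeptide, was at 0.329 in parental cells and 58.0 in ZDR3 (5.47). AP1M2, the epithelial adaptor subunit that sorts cargo to the basolateral membrane, was at 75.8 and 0.254 (-5.94), and the secreted protease KLK6 was lower as well (-2.35). The sheddase gene ADAM15 (-0.81) and the dynamin gene DNM2 (0.62) lay within 2-fold.

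Transcription factors tied to cadherin genes lay on both sides of 0. Of 28 genes 22 were expressed, with 5 past 2-fold higher, 8 past 2-fold lower and a median of -0.44. The shares over all expressed genes were 10.6% higher and 9.68% lower. Known repressors of CDH1 went both ways. ZEB1 was at 6.10 and 106 (3.91), ZEB2 at 0.455 and 18.3 (3.73), TCF4 (E2-2) at 0.196 and 25.1 (4.45) and SNAI2 at 0.854 and 5.41 (1.79). KLF8 was at 9.30 and 0.516 (-2.76), while SNAI1 (-0.76), TCF3 (-0.48) and TWIST2 (-0.15) did not pass 2-fold on this scale. TWIST1 was below the minimum in both libraries. The epithelial factors EHF (-8.31) and GRHL2 (-6.42) were lower.

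**Figure D5:**
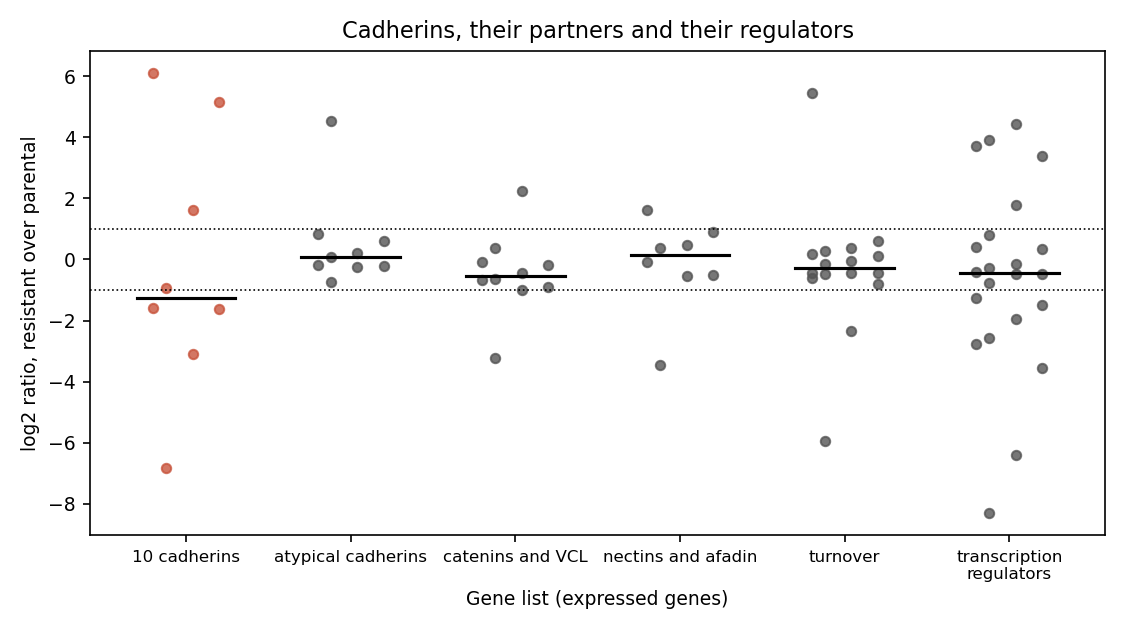
Log2 ratio of each expressed gene (points) in the cadherins and in 5 lists of related, partner and regulator genes, with the median of each list as a bar and dotted lines at 2-fold. The cadherins span -6.83 to 6.12, the turnover genes -5.94 to 5.47 and the transcription regulators -8.31 to 4.45. Within 2-fold lie 7 of the 10 expressed catenin genes and 13 of the 16 turnover genes, beside 10981 of all 13777 expressed genes.

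Markers of other cell types were set beside the higher CDH2 and the lower CDH11. Of 6 endothelial markers found 0 were expressed, with summed levels of 0.875 in parental cells and 0.334 in ZDR3, and CDH5, the endothelial cadherin, had levels of 0.0210 and 0.0145. Of 8 fibroblast markers 1 was expressed, COL1A1, with sums of 9.54 and 1.95, and COL3A1 and THY1 had 0 reads in both libraries. Of 7 neural markers 1 was expressed, MAP2, with sums of 3.64 and 2.17. Of 7 leukocyte markers 2 were expressed, CD14 and CSF1R, with sums of 4.14 and 1.77. The endothelial sums hold no expressed gene. The other sums hold the 1 or 2 expressed genes of each list together with genes below the minimum. In ZDR3 MAP2 was at 0.734, below RBFOX3 at 0.937, which was not called expressed. Some scarce markers had more reads in ZDR3, among them PTPRC with 0 and 32, SOX10 with 0 and 20, NCAM1 with 0 and 11 and ITGAM with 25 and 59. Their part in the cadherin values was not tested.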

How the data were processed

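Polyadenylated RNA of 1 parental and 1 resistant library was sequenced on an Illumina HiSeq, per the labels' protocols. The submitters' processing notes name TopHat. Not given in the sources used here were genome build, counter, strand setting and read pairing. The deposited table holds 1 log2 value per gene and library, and its name says RPKM. Back-transformed values were whole multiples (within 0.1 read, 100% of genes up to 100000 reads) of 1 step per library, 0.00700 and 0.00727, so they were not divided by length. The lowest value, 0.9 reads, was taken as 0. The column ending in Prim was read as parental, as the other names ZDR3.

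Ratios, counting intervals and list counts were computed in Python 3.11.15 with SciPy 1.17.1. The 2-fold calls and the intervals, but not the list counts, were tested on simulated counts that held counting error only. Lengths and gene order came from GENCODE release 29 by Ensembl identifier, which need not be the annotation used upstream. Members and lists were chosen with earlier results of these data known. All 10 members are named, and of each list up to 5 expressed genes with the largest absolute log2 ratio, plus ZEB1, CTNNB1, CTNNA1, CTNND1 and JUP. Marker genes, CDH5, SNAI1, SNAI2, KLF8, TCF3, TWIST1, TWIST2 and chromosome neighbours were named outside that rule, after their values were seen. Of 134 list genes 133 were found. Alternatives were another pseudocount, minimum level, scaling, length correction and neighbour number.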

Additional observations from a re-analysis of the deposited data

How the results depend on the processing

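The log2 ratios of CDH1, CDH2, CDH3, CDH4, CDH6, CDH11, CDH16, CDH17 and CDH24 kept their sign under all 7 alternatives. Another pseudocount, another minimum level or division by length cannot change a sign. Only scaling to the same total of reads and centring on the median of all expressed genes could have done so. CDH1 ranged from -3.12 to -3.08 and CDH3 from -7.00 to -6.24, while CDH2 ranged from 3.48 to 6.24 and CDH6 from 3.62 to 7.48. The count of cadherins at least 2-fold lower was 2 in place of 4 with a pseudocount of 5, with a minimum level of 5 and with division by transcript length, as CDH4 and CDH11 are scarce. The count at least 2-fold higher was 2 or 3 throughout. Over all expressed genes a pseudocount of 5 gave 901 higher and 865 lower. The summed cadherin level was 6.35-fold lower per coding length, chosen after seeing the data, and 6.44-fold lower without length correction. No paired analysis was possible because each group has 1 library. For the same reason no library could be left out. Depth limits CDH13 and CDH16, where reads numbered 0 to 32.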

Other observations

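The desmosomal cadherin genes lie beside CDH2 on chromosome 18 and were looked at after their values were seen. The 3 expressed genes next to CDH2 on one side were DSC3, DSC2 and DSG2, which encode cadherins of desmosomes, the junctions that anchor keratin filaments. DSC3 had a log2 ratio of -3.12, DSC2 one of -1.15 and DSG2 one of -0.75, while CDH2 itself stood at 5.15. On the other side of CDH2 the nearest expressed genes, CHST9 (2.16) and AQP4 (1.59), were higher in ZDR3. Both were at 0 in parental cells and at 3.47 and 2.02 in ZDR3, so only ZDR3 made them count as expressed.

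CDH13 had no reads in either library. Of the 20 expressed genes closest to it, 5 were higher in ZDR3 by 2-fold or more and 1 was lower by as much. Among the 5, SDR42E1 was at 0.0140 in parental cells and 2.25 in ZDR3, and MAF at 0.273 and 37.0. Only ZDR3 made SDR42E1 and MAF count as expressed, while the 1 lower gene, ATP2C2, passed the minimum in both libraries. Over all expressed genes the shares were 10.6% higher and 9.68% lower.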
